A study of Homo sapiens with 3 samples.

Results

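GPX3-high cells are the OVCAR3 cells with the most GPX3 mRNA in each of 3 single-cell RNA-sequencing (scRNA-seq) libraries. They were chosen by GPX3 itself. Every cell with at least 10000 unique molecular identifiers (UMIs, which count captured mRNA molecules) was scored by its GPX3 UMIs divided by all of its UMIs, and the top 5% of each library with at least 1 GPX3 UMI were taken. This gave 294 of 5871 scored cells for DMSO, 399 of 7983 for RAC1i and 322 of 6437 for Combo, or 1015 of 20291 scored cells and of 25985 cells that passed the filters. OVCAR3 is an established cell line of human high-grade serous ovarian cancer (HGSOC). The cultures were treated for 48 h with the vehicle DMSO, with 50 μM NSC23766, which blocks activation of the small GTPase RAC1 (RAC1i), or with 50 μM NSC23766 and 5 μM GSK126, an inhibitor of the histone methyltransferase EZH2 (Combo). Each condition was 1 library of 1 cell line, so conditions could not be tested against each other. GSK126 alone was not analysed here. Levels are counts per 1000000 UMIs (CPM) summed over a group of cells, and all 95% intervals cover counting error only.

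GPX3 encodes a glutathione peroxidase that is secreted from the cell and reduces hydrogen peroxide and lipid peroxides with electrons from thiols such as glutathione. Its active site holds a selenocysteine, the selenium form of cysteine, which is read from a UGA codon that would otherwise end translation. It is best known as the peroxidase of blood plasma, where most of it comes from the kidney. The gene lies on the plus strand at chr5:151020591-151028988 (GRCh38, GENCODE 44). In the transcript GPX3-201 the selenocysteine is codon 73 of 226, in exon 2 of 5, at chr5:151025469-151025471. The coding stretch around it, chr5:151025457-151025486, is shown because it encodes the catalytic residue. The capitals mark the codon.
GPX3 coding: gtggccagctacTGAggcctgacgggccag
The 250 bases before the start of transcription, from RefSeq on GRCh38.p14, are shown for GPX3 (chr5:151020341-151020590, plus strand) and for MUC1 (chr1:155192916-155193165, minus strand), a gene higher in GPX3-high cells of every library. The capitals mark matches on either strand to a loose NF-kB motif, GGG and CC with 5 bases of any kind between them.
GPX3 promoter: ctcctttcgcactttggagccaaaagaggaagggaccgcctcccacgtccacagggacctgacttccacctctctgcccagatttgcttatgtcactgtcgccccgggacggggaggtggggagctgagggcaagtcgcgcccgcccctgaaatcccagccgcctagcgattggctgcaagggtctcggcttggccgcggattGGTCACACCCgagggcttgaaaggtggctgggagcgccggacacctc
MUC1 promoter: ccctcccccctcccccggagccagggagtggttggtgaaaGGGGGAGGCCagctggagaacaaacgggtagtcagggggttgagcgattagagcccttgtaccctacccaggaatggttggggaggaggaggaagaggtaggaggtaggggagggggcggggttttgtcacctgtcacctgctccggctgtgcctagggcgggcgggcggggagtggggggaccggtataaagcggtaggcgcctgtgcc
Of GPX3 and the 9 genes higher in every library, 3 had an entry in the table, and S100A1 held no match. The motif is common: it was in 54.4% of the 35116 promoters of the table and in 68.5% of the 5472 whose genes were expressed here. Neither promoter shown above held the C/EBP letters TTGCNNAA, found in 9.05% of all promoters, or the antioxidant response letters TGACNNNGC, found in 10.9%.

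Scored cells of DMSO, RAC1i and Combo summed to 190107640, 222367751 and 203167262 UMIs. GPX3-high cells had a median of 31794, 24827 and 26082 UMIs per cell under DMSO, RAC1i and Combo, and the other cells 30917, 25581 and 30608. In Combo, GPX3-high cells were therefore shallower than the other cells. The DMSO library stood apart in its mitochondrial UMIs, with a median share of 6.77% in GPX3-high cells and 6.29% in others, against 1.55% and 1.43% under RAC1i and 1.43% and 1.38% under Combo. The caller Scrublet marked 0 cells as doublets in each library and so had not worked. By its score, the top 8% of each library held 5.78%, 10.5% and 8.70% of the GPX3-high cells, against 9.11%, 9.48% and 9.65% of the other cells. The pairs of libraries shared 5 to 15 barcodes of scored cells. In every library, GPX3-high cells expressed the markers of ovarian cancer epithelium EPCAM (276, 295 and 330 CPM under DMSO, RAC1i and Combo) and PAX8 (397, 62.4 and 55.5 CPM). The 12 markers of fibroblasts, blood and endothelium summed to 9.32, 7.74 and 7.82 CPM in GPX3-high cells and 7.85, 7.995 and 7.68 CPM in the others. The most abundant was COL1A1, with 60, 47 and 48 UMIs in GPX3-high cells, while PTPRC, COL3A1 and HBB had 0 UMIs in them in every library. Their part in the results was not tested.

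The spread of GPX3 counts between cells is given as a description. No other gene of like level was set beside it, so it is no trait particular to GPX3. With every scored cell thinned to 10000 UMIs, the variance of the GPX3 count was 5.81 times its mean under DMSO, 2.30 times under RAC1i and 2.63 times under Combo, where random sampling from identical cells would give a ratio near 1. A GPX3 UMI was found in 64.4% of thinned cells under DMSO (Clopper-Pearson interval 63.2 to 65.7), in 49.8% under RAC1i (48.7 to 50.9) and in 45.0% under Combo (43.8 to 46.2). Without thinning the shares were 87.6%, 72.7% and 73.6%. Over all scored cells GPX3 was at 195 CPM under DMSO, 96.9 CPM under RAC1i and 85.0 CPM under Combo. The RAC1i level was 0.496 times the DMSO level (interval 0.488 to 0.504) and the Combo level 0.435 times (0.427 to 0.443), each from 1 library. Barcodes that failed the filters held GPX3 at 114, 128 and 90.3 CPM, close to the other scored cells under DMSO and above them under RAC1i and Combo. They failed on gene count, mitochondrial share or complexity and may hold cells, so these levels are no measure of free RNA. How much free RNA adds to a low GPX3 count was not tested.

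The scores that chose the cells are given as a description. GPX3 was at 1176 CPM in GPX3-high cells and 142 CPM in the other cells of DMSO, at 492 and 76.6 CPM under RAC1i, and at 503 and 65.7 CPM under Combo. The median GPX3-high cell held 33.5 GPX3 UMIs under DMSO (range 8 to 131), 11 under RAC1i (4 to 81) and 12 under Combo (3 to 86). These cells carried 31.3%, 24.8% and 26.1% of all GPX3 UMIs of the scored cells. The lowest GPX3-high cell was at 669 CPM under DMSO and the next cell below at 668. In RAC1i these values were 301.6 and 301.4, and under Combo 292.8 and 292.3. The cutoff thus fell at no gap in the scores of any library. Cells ranked next to each other lie close at almost any cut of a large library. These values therefore cannot show whether GPX3-high cells are a separate class, and this was not tested. The cutoffs differ between libraries, and a level above 1000 CPM was reached by 142 GPX3-high cells of DMSO, by 21 of RAC1i and by 22 of Combo. The UMIs of each cell were also divided at random into 2 equal parts, with cells chosen on the first part and measured in the second. GPX3 in the part not used for the choice was 7.68-fold higher in the chosen cells of DMSO (interval 7.44 to 7.93), 4.72-fold under RAC1i (4.4995 to 4.96) and 5.96-fold under Combo (5.66 to 6.28). These ratios are of the gene that chose the cells. They too are a description and no separate evidence for the group.

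**Figure D1:**
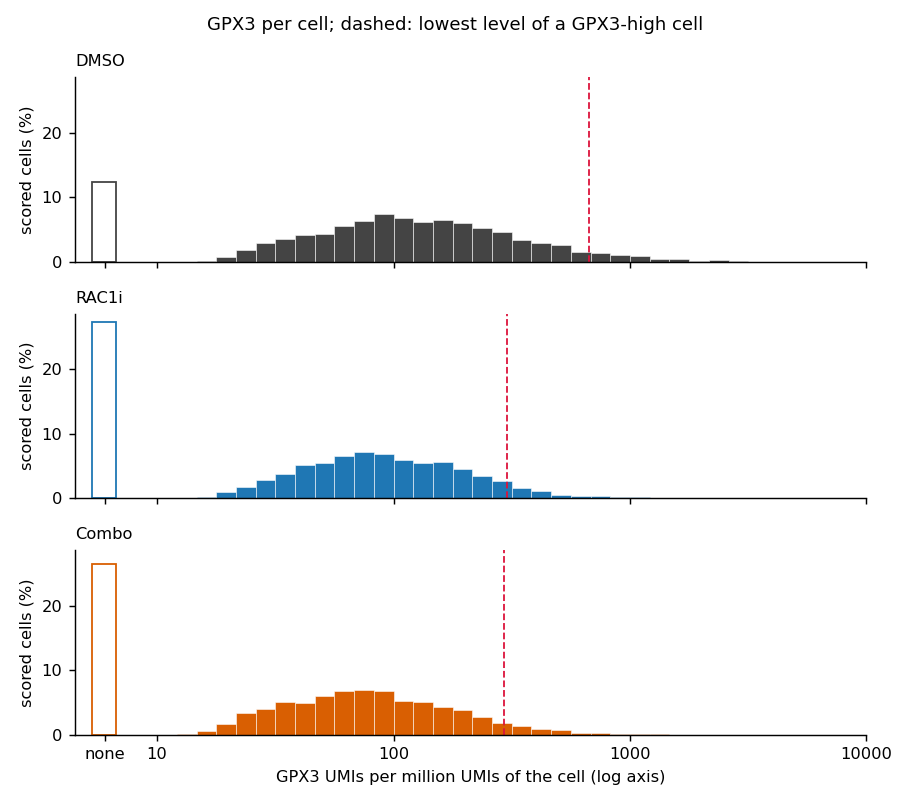
Share of scored cells (y axis, percent) by GPX3 CPM of the cell (x axis, log scale) in the 3 libraries; the open bar at the left holds the cells with no GPX3 UMI and the dashed line is the lowest GPX3-high cell. Each distribution has 1 broad peak, the dashed line cuts its upper tail, and the line stands at 669 CPM under DMSO against 301.6 under RAC1i and 292.8 under Combo.

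Other genes were compared between GPX3-high cells and all other scored cells of the same library. Among genes with at least 20 CPM in either group and leaving out GPX3, 71 of 6013 were at least 1.5-fold higher in GPX3-high cells of DMSO (1.18%), 39 of 5338 under RAC1i (0.731%) and 59 of 5377 under Combo (1.1%). At least 1.5-fold lower were 53 genes under DMSO (0.881%), 12 under RAC1i (0.225%) and 26 under Combo (0.484%). Most genes differed little: the median log2 ratio was -0.07 under DMSO, -0.05 under RAC1i and -0.07 under Combo, with SDs over genes of 0.22, 0.18 and 0.22. In all 3 libraries 9 of 4592 genes were at least 1.5-fold higher (0.196%) and 0 were at least 1.5-fold lower (0%). RAC1i and Combo shared 28 of the higher genes, which is 71.8% of the RAC1i list and 47.5% of the Combo list. DMSO and RAC1i shared 12, which is 16.9% of the DMSO list and 30.8% of the RAC1i list. DMSO and Combo shared 11, which is 15.5% of the DMSO list and 18.6% of the Combo list. A gene below 20 CPM in either library, as ADM was under DMSO, could not be shared. The overlaps are therefore partly set by that minimum. Across genes, which are not independent replicates, Pearson's r of the log2 ratios was 0.71 for RAC1i and Combo (5186 genes), 0.42 for DMSO and RAC1i (4671 genes) and 0.31 for DMSO and Combo (4726 genes).

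The 9 genes were CP, CLU, C3, SLPI, PI3, S100A1, CEBPD, MUC1 and CD70. Their number is no measure of how many genes go with GPX3, since PI3 under DMSO and Combo and CD70 under RAC1i and Combo reached 20 CPM only in the GPX3-high cells. CP encodes ceruloplasmin, the copper ferroxidase of plasma. Its level in GPX3-high and other cells was 777 and 324 CPM under DMSO, 132 and 57.7 CPM under RAC1i, and 111 and 45.1 CPM under Combo. CP was thus 2.40-fold higher under DMSO (interval 2.34 to 2.46), 2.29-fold under RAC1i (2.16 to 2.42) and 2.46-fold under Combo (2.31 to 2.63), so the ratios were alike while the level was much lower in the treated libraries. A CP UMI was found in 97.3% of GPX3-high cells and 77.8% of other cells of DMSO.

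CLU encodes clusterin, a secreted chaperone. Its level was 1281 against 646 CPM under DMSO, 643 against 349 CPM under RAC1i and 758 against 411 CPM under Combo, which is 1.98-, 1.84- and 1.85-fold higher. C3, the central component of complement, was at 174 against 91.3 CPM, 83.7 against 45.7 CPM and 79.3 against 36.6 CPM, which is 1.91-, 1.83- and 2.17-fold higher. SLPI, a secreted inhibitor of leukocyte proteases, was at 2005 against 1281 CPM, 2040 against 1341 CPM and 2003 against 1286 CPM, which is 1.56-, 1.52- and 1.56-fold higher. SLPI is close to the 1.5-fold limit (0.58 on the log2 scale), and fell below it under DMSO within 10 bins of total UMIs (log2 ratio 0.547) and under RAC1i with cells chosen on separate UMIs (0.572). Its relative, the elastase inhibitor PI3 (elafin), was at 27.1 against 12.7 CPM under DMSO, 59.0 against 21.1 CPM under RAC1i and 52.9 against 16.6 CPM under Combo. The PI3 values rest on few cells, since 10 cells held 52.2%, 35.9% and 53.3% of the PI3 UMIs of GPX3-high cells, against 14.2%, 18.8% and 21.2% for CP.

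The other genes of the 9 act inside the cell or on its surface. S100A1, a calcium-binding protein, was at 511 against 310 CPM under DMSO, 419 against 245 CPM under RAC1i and 451 against 228 CPM under Combo. CEBPD, a C/EBP transcription factor of the acute phase response, was at 99.7 against 60.5 CPM, 230 against 129 CPM and 228 against 111 CPM. The CEBPD ratio was 1.65 under DMSO (interval 1.54 to 1.76), 1.78 under RAC1i (1.71 to 1.86) and 2.06 under Combo (1.97 to 2.15). MUC1, a transmembrane mucin, was named after its values were seen and was 1.84-, 1.85- and 1.75-fold higher. CD70, a ligand of the TNF family, was 1.54-fold higher under DMSO (interval 1.43 to 1.65), 1.71-fold under RAC1i and 1.89-fold under Combo, at 78.1, 23.5 and 22.2 CPM in GPX3-high cells. With cells chosen on separate UMIs the CD70 log2 ratio under Combo was 0.36 in place of 0.92, below 1.5-fold, and 10 cells held 35.7% of its UMIs in GPX3-high cells of Combo. Without the 10% of cells with the most UMIs it was 0.46 under Combo and 0.578 under DMSO. Of these genes, C3 and CD70 lie near each other on chromosome 19 (chr19:6677704-6730562 and chr19:6583183-6604103), as do PI3 and SLPI on chromosome 20 (chr20:45174902-45176544 and chr20:45252239-45254564).

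**Figure D2:**
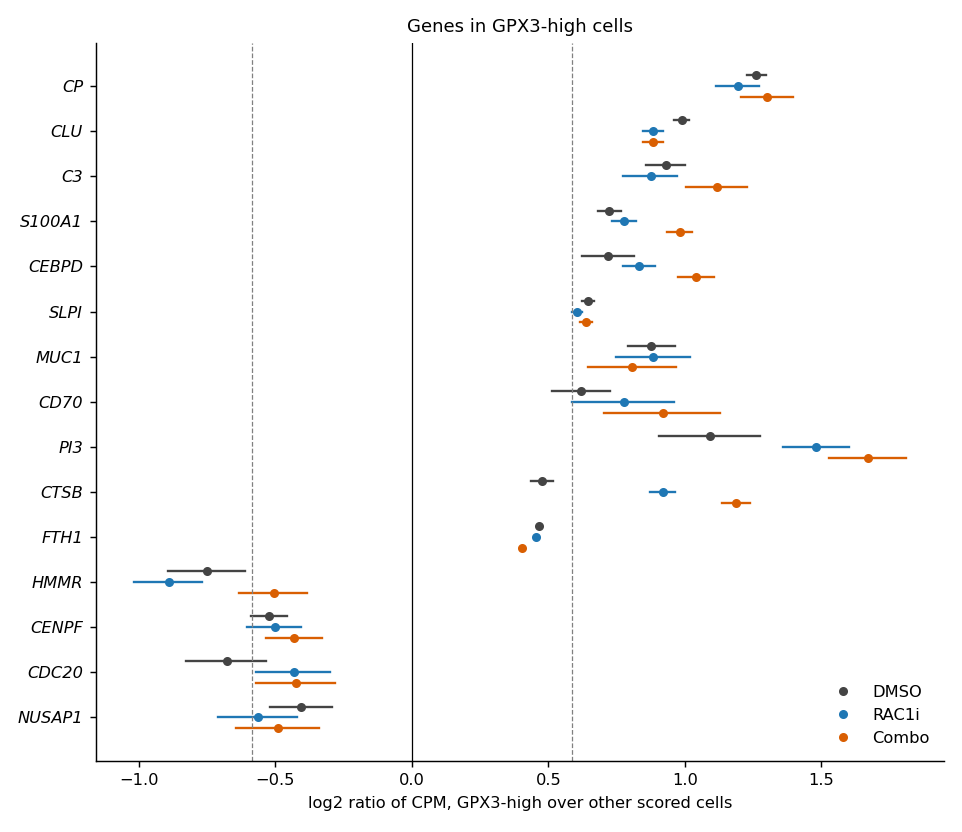
Log2 ratio of CPM in GPX3-high cells over the other scored cells (x axis) for named genes in the 3 libraries; points are ratios, bars are 95% counting intervals, and dashed lines mark 1.5-fold. CP is at 1.26 under DMSO and 1.19 under RAC1i, FTH1 at 0.47, 0.45 and 0.40, and the mitotic genes at the bottom lie below 0 in every library.

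Several of these differences were graded over the range of GPX3, and others were not. CP under DMSO was at 214.5 CPM in cells with no GPX3 UMI and at 246, 364, 507, 689 and 1168 CPM in cells below the 50th percentile of GPX3, between 50 and 80, 80 and 95, 95 and 99, and above 99. In Combo the same groups held CP at 36.6, 37.5, 46.3, 69.9, 98.4 and 165 CPM. Each step was upward, although most of these cells were not GPX3-high. S100A1 went from 255 to 611 CPM under DMSO, from 210 to 558 CPM under RAC1i and from 190 to 667 CPM under Combo between the cells with no GPX3 UMI and those above the 99th percentile. CEBPD went from 50.3 to 132 CPM under DMSO but was no higher above the 99th percentile (208 and 224 CPM) than between 95 and 99 (234 and 229 CPM) under RAC1i and Combo. CRYAB, a small heat shock protein, stayed between 198 and 271 CPM under DMSO up to the 99th percentile and reached 413.5 CPM above it, while under RAC1i it went from 46.1 to 429 CPM. CD70 was flat up to the 80th percentile, at 51.3, 47.1 and 49.4 CPM under DMSO and 11.5, 11.2 and 11.4 CPM under Combo, and higher above it. Cells with no GPX3 UMI were shallower than the next group, so this first step compares cells of unlike depth.

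**Figure D3:**
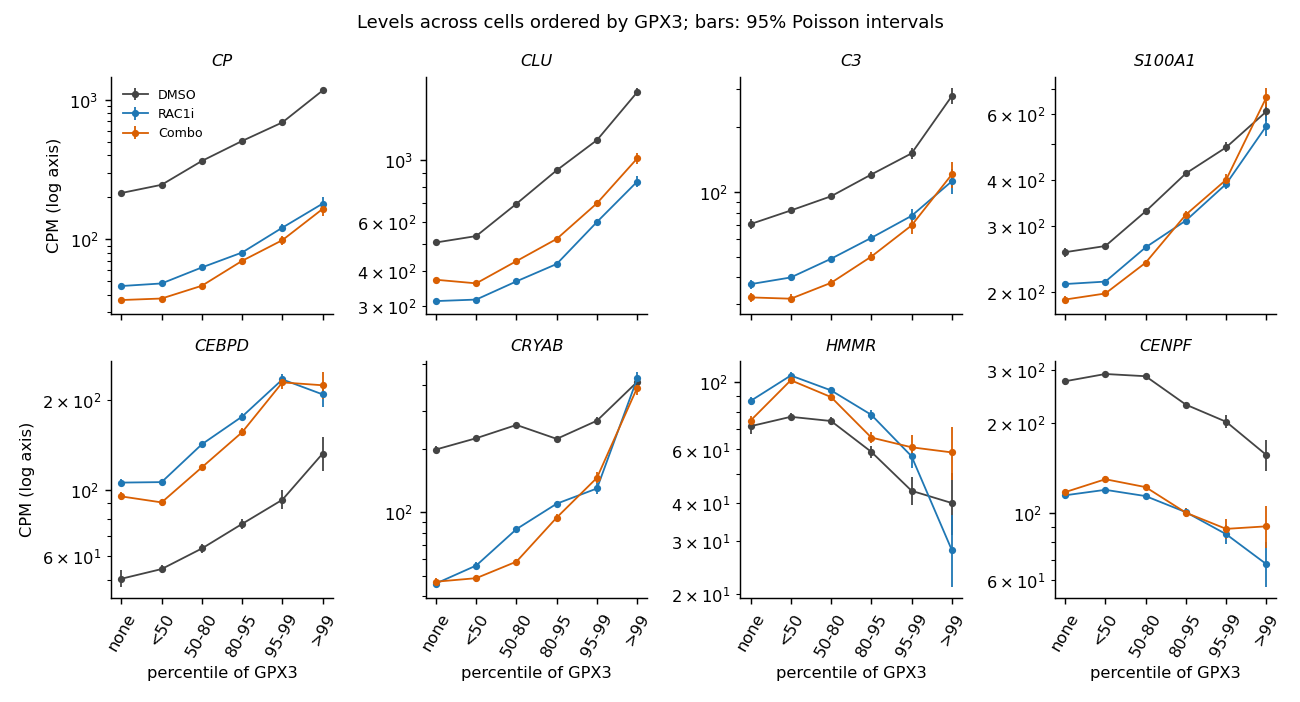
CPM (y axis, log scale) of 8 genes in scored cells grouped by their percentile of GPX3 (x axis), with cells without a GPX3 UMI at the left; colours are libraries and bars 95% Poisson intervals. From below the 50th percentile upward CP, CLU, C3 and S100A1 climb in every library, CRYAB climbs mainly under RAC1i and Combo, and HMMR and CENPF are lowest in the groups with the most GPX3.

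FTH1, CTSB and CTSD had ratios above 1 in every library, but only CTSB under RAC1i and Combo and CTSD under Combo reached 1.5-fold. FTH1, the heavy chain of the iron store ferritin, was at 43240 against 31316 CPM under DMSO, 30200 against 22038 CPM under RAC1i and 26932 against 20368 CPM under Combo. The ratios were 1.38, 1.37 and 1.32, with the limit that FTH1 has processed pseudogenes whose reads may be assigned either way. FTL, the light chain, differed less, with a ratio of 1.18 under DMSO, 1.02 under RAC1i (interval 0.994 to 1.05) and 0.906 under Combo. Among genes of iron storage and transport, 1 of 11 tested under DMSO, 1 of 9 under RAC1i and 1 of 8 under Combo was 1.5-fold higher, and this was CP. The medians of the list were 0.10, 0.08 and 0.09 on the log2 scale. Over all genes tested 1.18%, 0.731% and 1.1% were 1.5-fold higher, so a count of 1 in a list of this size is near that background. CTSB, a lysosomal cysteine protease, was at 534 against 384 CPM under DMSO, 361 against 191 CPM under RAC1i and 383 against 168 CPM under Combo. Its ratio of 1.39 under DMSO (interval 1.35 to 1.43) was below those of RAC1i (1.89, 1.83 to 1.95) and Combo (2.28, 2.20 to 2.36). CTSD, the aspartic protease of the lysosome, was 1.35-, 1.47- and 1.51-fold higher, the last of these below 1.5-fold within bins of total UMIs (log2 ratio 0.54).

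The systems that GPX3 belongs to by its chemistry are described next. Over all genes tested only 1.18%, 0.731% and 1.1% were 1.5-fold higher and 0.881%, 0.225% and 0.484% lower under DMSO, RAC1i and Combo, so counts of 0 or 1 in lists of this size are near that background and are given as a description. GPX4, the peroxidase of membrane lipids, was at 1288 against 1087 CPM under DMSO, 761 against 629 CPM under RAC1i and 852 against 698 CPM under Combo, a ratio of 1.19 to 1.22. GPX2, GPX5, GPX6 and GPX7 were below 20 CPM in every group, GPX8 passed 20 CPM under DMSO alone with a log2 ratio of -0.34, and GPX1 was not analysed here. Of the other selenoproteins, 0 of 14 tested under DMSO and 0 of 12 in each of RAC1i and Combo passed 1.5-fold in either direction, with median log2 ratios of -0.07, -0.07 and -0.13. The genes that insert selenocysteine had medians of 0.01, -0.17 and -0.02 with 0 past 1.5-fold. Targets of NRF2, the transcription factor of the antioxidant response, had medians of -0.13 over 17 genes, 0.03 over 11 genes and -0.004 over 11 genes, also with 0 past 1.5-fold. EPHX1, an epoxide hydrolase and the highest NRF2 target, was 1.32-, 1.42- and 1.49-fold higher. Enzymes of glutathione synthesis and recycling had medians of -0.15, 0.01 and 0.04, and glutathione S-transferases -0.17, 0.10 and 0.08, with 0 past 1.5-fold. Among thioredoxins, peroxiredoxins and superoxide enzymes, 1 of 17 genes under DMSO, 1 of 15 under RAC1i and 0 of 16 under Combo was 1.5-fold higher. This gene was TXNIP, the inhibitor of thioredoxin, at 88.4 against 45.4 CPM under DMSO, 822 against 534 CPM under RAC1i and 1040 against 723 CPM under Combo. With cells chosen on separate UMIs its log2 ratio under RAC1i was 0.44 in place of 0.62.

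GPX3 was a top gene of 1 of the study's clusters, Misc 3, whose gene list was chosen by the study on these samples. Of its 9 other top genes, 0 were 1.5-fold higher in GPX3-high cells of any library, which is near the share of all genes given above. The median log2 ratio was 0.17 under DMSO and 0.14 under RAC1i, where 7 of 9 were above 0, and -0.02 under Combo, where 4 of 9 were. FTH1 was the highest, and the cell cycle regulator MYBL2 the lowest at -0.37, -0.13 and -0.12. Over the list of cholesterol synthesis genes the median log2 ratios were -0.18, 0.03 and 0.09, with 1 of 13 genes, the sterol reductase TM7SF2, past 1.5-fold under RAC1i (log2 ratio 0.62, and 0.57 within bins of total UMIs) and 0 in the other libraries.

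CXCL1 and IL6 were higher in GPX3-high cells of both treated libraries, and each had more than 20 CPM in the other cells there too. Of a list of 14 chemokines and cytokines, 5 reached 20 CPM in each treated library, and 4 under RAC1i and 5 under Combo were at least 1.5-fold higher. CXCL2 in both libraries and CXCL3 and CXCL8 under Combo reached 20 CPM only in the GPX3-high cells, so these counts and the medians of the list are partly set by that minimum. Summed over all 14 genes with no minimum, most of it CXCL1, the list was at 89.8 against 69.7 CPM under DMSO, 1131 against 656 CPM under RAC1i and 724 against 369 CPM under Combo. In DMSO 1 gene passed 20 CPM and 0 of these were 1.5-fold higher, while CXCL2, below the minimum, was at 15.9 against 6.15 CPM. CXCL1, a neutrophil chemokine, was at 60.3 against 44.6 CPM under DMSO, 728 against 426 CPM under RAC1i and 487 against 240 CPM under Combo. CXCL8 was at 81.4 against 33.2 CPM under RAC1i and 33.3 against 13.6 CPM under Combo, while DMSO held it at 1.01 against 3.68 CPM. The CXCL8 values rest on few cells, because 10 cells held 52.7% of its UMIs in GPX3-high cells of RAC1i and 62.8% under Combo. IL6 was 1.75-fold higher under RAC1i (interval 1.68 to 1.82) and 1.65-fold under Combo (1.55 to 1.76), and ICAM1, an adhesion molecule, 1.60- and 2.21-fold. IL6 and ICAM1 were named after their values were seen. Feedback genes of NF-kB had median log2 ratios of -0.09 under DMSO, 0.15 under RAC1i and 0.46 under Combo, with 1 of 6, 1 of 9 and 4 of 9 at least 1.5-fold higher. Over all genes tested the shares were 1.18%, 0.731% and 1.1%. In DMSO 5 of the 6 had log2 ratios below 0. The higher genes were TNFAIP2 under DMSO, ICAM1 under RAC1i, and TNFAIP3, TNF, IER3 and ICAM1 under Combo. ICAM1 under RAC1i and Combo, like EGR1 under Combo, reached 20 CPM only in the GPX3-high cells. Within bins of total UMIs the ICAM1 log2 ratio under Combo was 0.76 in place of 1.15. Without bins 10 cells held 41.5% of its UMIs in GPX3-high cells of Combo. In Combo, where GPX3-high cells were shallower, IER3 and TNFAIP3 fell below 1.5-fold within bins of total UMIs (log2 ratios 0.498 and 0.495, against 0.66 for each without bins) and with cells chosen on separate UMIs (0.54 and 0.55). TNF, the cytokine that activates NF-kB, was at 92.8 against 47.5 CPM under Combo. Among immediate early genes KLF10, a zinc finger repressor, was 1.63-fold higher under RAC1i (log2 ratio 0.70, and 0.56 with separate UMIs) and 1.84-fold under Combo, where EGR1 was 1.85-fold higher and 10 cells held 49.0% of its UMIs in GPX3-high cells. Whether free RNA had a part in these differences was not tested. CXCL1, CXCL2 and CXCL3 are close relatives whose reads may be shared.

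**Figure D4:**
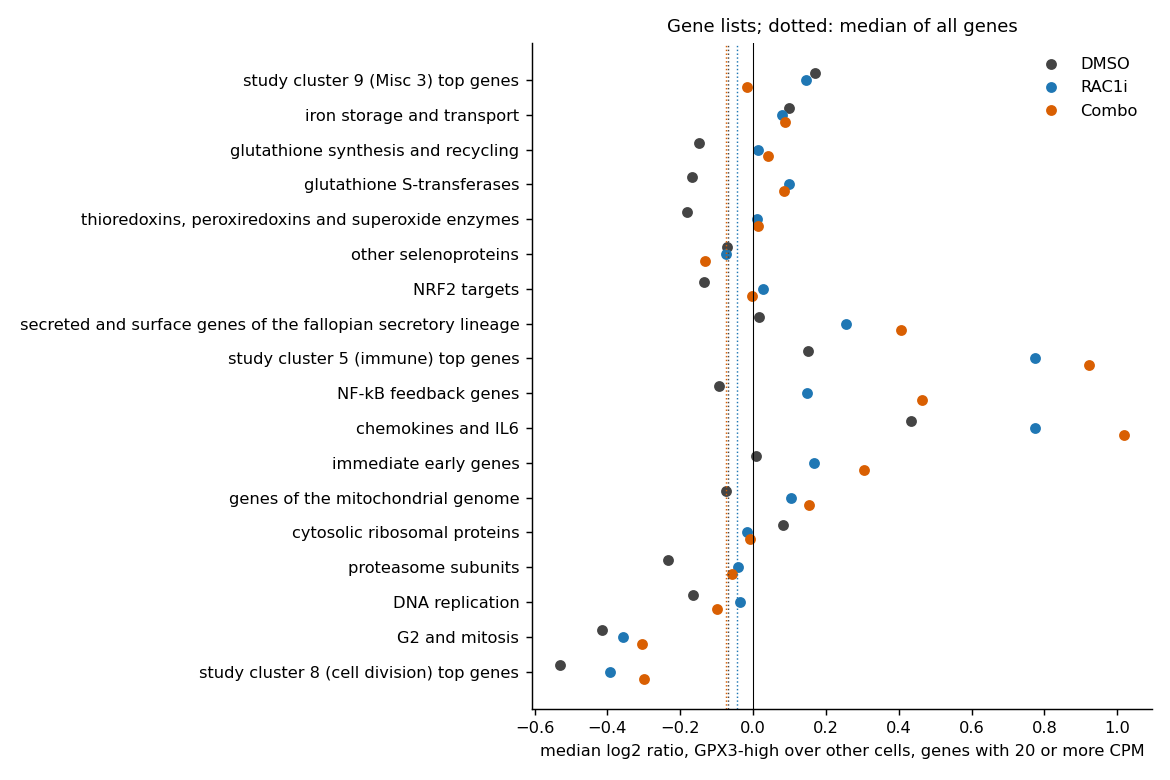
Median log2 ratio of CPM in GPX3-high over other cells (x axis) for 18 gene lists, over members with at least 20 CPM, in the 3 libraries; dotted lines are the medians of all genes. G2 and mitosis stand at -0.41, -0.36 and -0.30 under DMSO, RAC1i and Combo, while the points for chemokines and IL6 rest on 1, 5 and 5 genes, some of which reached the minimum only in GPX3-high cells, and are not to be read as a difference.

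CRYAB and ADM had larger ratios in the treated libraries than under DMSO, although the level of CRYAB was highest under DMSO. CRYAB was at 184 against 71.5 CPM under RAC1i, a ratio of 2.58 (interval 2.46 to 2.70), and at 192 against 58.4 CPM under Combo, a ratio of 3.28 (3.12 to 3.45). In DMSO it was at 297 against 232 CPM, a ratio of 1.28 (1.23 to 1.33). In GPX3-high cells 10 cells held 33.5%, 41.5% and 45.0% of CRYAB UMIs. ADM, the vasodilator peptide adrenomedullin, was at 278 against 148 CPM under RAC1i and 258 against 105 CPM under Combo, and at 4.35 against 3.67 CPM under DMSO. Because ADM was nearly absent from DMSO, its ratio there (1.19, interval 0.851 to 1.62) says little.

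The genes with the highest ratios under DMSO included ITPR2, SAT1, UCA1 and FAM107A. ITPR2, a calcium channel of the endoplasmic reticulum, was at 174 against 70.4 CPM under DMSO, a ratio of 2.47 (interval 2.35 to 2.60), and below 21 CPM in both groups of RAC1i and Combo, where its ratios were 1.14 and 1.251. SAT1, an enzyme that breaks down polyamines, was 2.22-fold higher under DMSO (2.07 to 2.38), 1.51-fold under RAC1i (1.43 to 1.60, just below 1.5-fold within bins of total UMIs) and 1.33-fold under Combo (1.24 to 1.42). The noncoding RNA UCA1 was 2.12-, 1.32- and 1.38-fold higher. FAM107A was at 62.1 against 31.1 CPM under DMSO and at 12.8 against 6.10 CPM and 11.8 against 6.28 CPM under RAC1i and Combo, each a ratio near 2. Its treated values lie below 20 CPM and rest on few cells. In GPX3-high cells of RAC1i and Combo 10 cells held 46.8% and 37.7% of its UMIs. Within bins of total UMIs the Combo log2 ratio was 0.71 in place of 0.92.

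Most genes of cell division had ratios below 1 in GPX3-high cells, and few of them reached 1.5-fold. Of the genes of G2 and mitosis with at least 20 CPM, 37 of 37 under DMSO, 32 of 33 under RAC1i and 33 of 34 under Combo had log2 ratios below 0, while 36.2%, 37.4% and 34.1% of all genes were above 0. Their medians were -0.41, -0.36 and -0.30, and 5, 4 and 1 of them were at least 1.5-fold lower. Over all genes tested the shares lower were 0.881%, 0.225% and 0.484%, and the count of 1 under Combo is near that background. The lower genes of the list were CCNB1, CCNB2, HMMR, CDC20 and NUF2 under DMSO, AURKA, CENPE, HMMR and DEPDC1 under RAC1i, and AURKA under Combo. Some of these calls do not hold when the cells are chosen otherwise. AURKA under Combo went from a log2 ratio of -0.59 to -0.31 within bins of total UMIs, and without bins 10 cells held 50.6% of its UMIs in GPX3-high cells. The median of the list in bins was -0.46 under DMSO, -0.32 under RAC1i and -0.16 under Combo, so that under Combo, where GPX3-high cells were shallower, it was nearer to 0. Under RAC1i AURKA (-0.5685) and DEPDC1 (-0.43), and under DMSO CCNB2 (-0.54), were also short of 1.5-fold in bins. With cells chosen on separate UMIs CDC20, CCNB2 and NUF2 under DMSO (-0.48, -0.55 and -0.49) and CENPE and DEPDC1 under RAC1i (-0.31 and -0.45) were short of it. HMMR, which organises the mitotic spindle, was at 43.1 against 72.7 CPM under DMSO, 50.1 against 92.98 CPM under RAC1i and 60.6 against 86.0 CPM under Combo. Its ratios were 0.594 (interval 0.538 to 0.654), 0.539 (0.494 to 0.587) and 0.704 (0.645 to 0.767). CENPF, of the kinetochore, was at 193 against 277 CPM, 80.1 against 114 CPM and 89.0 against 120 CPM. CDC20, which activates the anaphase-promoting complex, had ratios of 0.625, 0.740 and 0.745, and the spindle genes NUSAP1, AURKA and TPX2 had ratios between 0.663 and 0.796. The cells were not empty of mitotic RNA: a CENPF UMI was found in 62.9% of GPX3-high cells and 72.7% of others under DMSO. With cells chosen within 10 bins of total UMIs, which gave both groups a similar median depth, the HMMR log2 ratio was -0.82, -0.78 and -0.26, against -0.75, -0.89 and -0.51 without bins.

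DNA replication genes differed less. Their medians were -0.17, -0.03 and -0.10. Over all genes tested 0.881%, 0.225% and 0.484% were at least 1.5-fold lower. Counts of 0 or 1 in a list of this size are near that background. Of the replication genes, 0 of 31, 0 of 20 and 1 of 24 were at least 1.5-fold lower. This was RFC4, of the clamp loader, at 20.7 against 33.5 CPM under Combo, and it was short of 1.5-fold within bins of total UMIs (log2 ratio -0.51 against -0.70). TK1, which salvages thymidine, was at log2 ratios of -0.13, 0.21 and 0.35. Replication-dependent histones were below 0 in 10 of 10 genes of DMSO (median -0.23). They were above 0 in 8 of 10 of RAC1i (median 0.13) and 8 of 9 of Combo (median 0.25). Over all genes tested 36.2%, 37.4% and 34.1% were above 0 under DMSO, RAC1i and Combo.

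Single genes with the lowest ratios under DMSO were of unlike function. ANXA3, a calcium-dependent membrane-binding protein, was at 25.2 against 59.5 CPM under DMSO, a ratio of 0.424 (interval 0.372 to 0.481), and had ratios of 0.799 and 0.770 under RAC1i and Combo. CA2, a carbonic anhydrase, was at 25.8 against 51.7 CPM under DMSO and had log2 ratios of -0.05 and 0.23 under RAC1i and Combo. FABP5, a fatty acid carrier, had ratios of 0.449, 0.659 and 0.860, and the neuronal tubulin TUBB3 of 0.521, 0.603 and 0.673. With cells chosen on separate UMIs both were short of 1.5-fold under RAC1i, at log2 ratios of -0.42 and -0.4975. BCAT1, which breaks down branched-chain amino acids, had ratios of 0.523, 0.683 and 0.555, the RAC1i ratio being short of 1.5-fold. RAC1 itself had ratios of 0.830, 1.01 and 0.919, and EZH2 of 0.696, 0.739 and 0.886.

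The cells were then set against other gene scores, made from the study's top genes of its clusters and cut at the top 5% in the same way. By the immune genes, 13.5% of GPX3-high cells of RAC1i were in that top 5% (54 of 399, Clopper-Pearson interval 10.3 to 17.3) against 4.55% of other cells, and 14.6% of Combo (47 of 322, 10.9 to 18.9) against 4.497%. In DMSO the share was 7.48% (22 of 294, 4.75 to 11.1) against 4.88%. By the cell division genes, the shares were 1.70% against 5.18% under DMSO, 3.76% against 5.06% under RAC1i and 1.86% against 5.17% under Combo. By the genes of cell differentiation and development (CDD), the shares were 1.70% against 5.18% under DMSO, 2.76% against 5.12% under RAC1i and 5.28% against 4.99% under Combo. The RAC1i ratio for CDD, 0.539, was 0.893 with cells chosen within bins of total UMIs and 0.879 with the top 10% for both scores, so this difference depends on how the cells are chosen. By the Misc 4 genes, which include CRYAB, they were 3.40%, 9.02% and 7.76% against 5.09%, 4.79% and 4.86%. By the cell cycle/DNA repair genes, which are mostly of S phase and histones, they were 3.74%, 5.51% and 8.07% against 5.07%, 4.97% and 4.84%. The Combo ratio for this score was 1.67 (interval 1.07 to 2.49), above 1 where that of the cell division score was below it at 0.361 (0.131 to 0.794). With the top 10% for both scores these 2 ratios were nearer to 1, at 1.24 and 0.660. Each of these groups holds only 5% of the scored cells, so most GPX3-high cells would fall outside it with no relation at all.

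**Figure D5:**
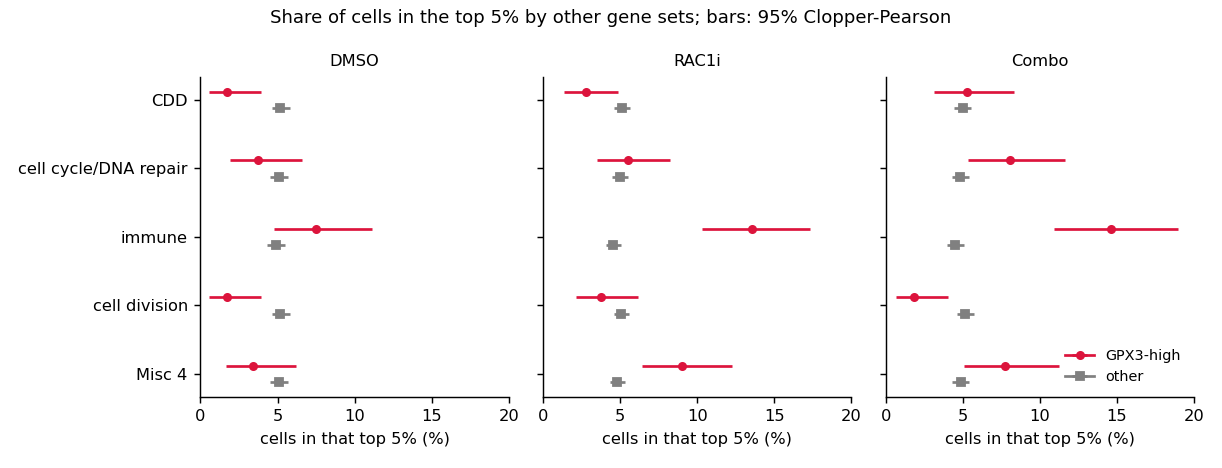
Share of GPX3-high cells (circles) and of other scored cells (squares) that are in the top 5% by another gene score (x axis, percent), by score and library, with 95% Clopper-Pearson intervals. The immune score holds 7.48%, 13.5% and 14.6% of GPX3-high cells under DMSO, RAC1i and Combo and the cell division score 1.70%, 3.76% and 1.86%; the ratio to other cells has an interval that holds 1 for the immune score under DMSO (0.946 to 2.37) and for cell division under RAC1i (0.412 to 1.24).

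Markers of the secretory lineage were then compared with those of other cell types. The list used holds secreted and surface genes, keratins and transcription factors of the fallopian tube secretory lineage, from which HGSOC is thought to arise. Of its genes, 6 of 21 were 1.5-fold higher under DMSO, 5 of 19 under RAC1i and 6 of 19 under Combo. Over all genes tested the shares were 1.18%, 0.731% and 1.1%. The median log2 ratios of the list were 0.02, 0.25 and 0.41, and 10 of 21 genes under DMSO were below 0. CP, CLU, C3, SLPI and MUC1 made up 5 of the higher genes in each library, so the list is no separate evidence. The others were MUC16 under DMSO (211 against 137 CPM, and short of 1.5-fold with separate UMIs at a log2 ratio of 0.568) and UPK1B under Combo (85.8 against 49.3 CPM). UPK1B was 1.5-fold lower under DMSO (log2 ratio -0.69). KRT8, a keratin of simple epithelia, had the lowest mean over the libraries, at log2 ratios of -0.40, -0.13 and -0.22. Of the study's stemness genes, 1 of 7 tested under DMSO, 0 of 2 under RAC1i and 1 of 3 under Combo were 1.5-fold higher, with median log2 ratios of 0.08, 0.12 and 0.16. These were ALDH1A1 under DMSO (37.1 against 18.5 CPM) and SOX2 under Combo (22.8 against 13.4 CPM), both named after their values were seen, and each reached 20 CPM only in the GPX3-high cells. ALDH1A1 was below 20 CPM under RAC1i and Combo, with log2 ratios of 1.07 and 1.55. There 10 cells held 50% and 47.8% of its UMIs in GPX3-high cells. SOX2 under DMSO had a log2 ratio of -0.0087, and under Combo 0.37 with cells chosen on separate UMIs. Markers of ciliated cells and of fibroblasts, blood and endothelium passed 20 CPM for 0 of 9 and 0 of 12 genes in every library. The ciliated markers summed to 33.9, 16.0 and 18.0 CPM in GPX3-high cells and 33.9, 12.9 and 14.6 CPM in the others. Most of these UMIs were of CAPS (179, 60 and 63 in GPX3-high cells) and RSPH1 (119, 86 and 83), while FOXJ1, the defining factor of ciliated cells, had 1, 0 and 4. Among genes of the kidney proximal tubule, a site of GPX3 production in the body, only ASS1 passed 20 CPM, with ratios of 1.20, 1.502 and 1.59, the RAC1i ratio being short of 1.5-fold within bins of total UMIs (log2 ratio 0.56).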

How the data were processed

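OVCAR3 cells of the DMSO, RAC1i and Combo libraries (3 in all) were profiled by droplet single-cell RNA-seq. The authors deposited UMI counts per gene and barcode, 36601 genes, without normalization. The submitters' processing notes name Cell Ranger 4.0.0 and GRCh38. A barcode passed with more than 1000 genes, no more than 20% of UMIs from mitochondrial genes and a ratio of log10 genes to log10 UMIs above 0.8. It was scored if it had 10000 or more UMIs, and no doublets were removed. UMIs were summed over GPX3-high and over other scored cells of a library and scaled to CPM. Intervals are exact Poisson for a CPM, exact conditional for a ratio and Clopper-Pearson for a share (95%), and cover counting error only. Each condition had 1 library, so no p-value is given. A gene was counted as higher or lower at 1.5-fold or more, if either group reached 20 CPM.

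The members, gene lists and alternatives were chosen with earlier results of these data known. Named genes were GPX3, RAC1 and EZH2; the 15 highest and 15 lowest genes by their smallest log2 ratio over the libraries (50 CPM or more in each, same direction); the 5 highest and 5 lowest of each library; the highest and lowest of each of 40 lists; the Misc 3 list; and the glutathione peroxidases. MUC1, UPK1B, CXCL2, CXCL3, IL6, ICAM1, TNF, TNFAIP2, TNFAIP3, KLF10, MUC16, ALDH1A1, SOX2, CCNB1, CCNB2, NUF2, CENPE and DEPDC1, and any other gene outside that rule, were added after their values were seen. The closing section gives the effect of 17 alternatives, which used among others TMM of edgeR 4.0.16 and size factors of DESeq2 1.42.0. Scrublet was run in scanpy 1.11.5, and the calculations in Python 3.11.15, scipy 1.17.1 and R 4.3.3. On simulated counts at the DMSO totals (5825 genes, 200 of them changed 2-fold), 94.9% of intervals held the true ratio, 100% of changed genes were called and 0 unchanged genes were. The simulation drew Poisson counts, the model of the intervals, with no variation between cells. It therefore checks the calculation and does not show how often real genes are called wrongly.
Gene positions are from GENCODE 44 and promoters from RefSeq. GPX1 and MT1L were not analysed here.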

Additional observations from a re-analysis of the deposited data

Results flagged for a closer look

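UPK1B, which encodes a uroplakin of epithelial surfaces, differed in direction between libraries. It was lower in GPX3-high cells of DMSO, at 107 against 173 CPM (log2 ratio -0.69), and higher in those of Combo, at 85.8 against 49.3 CPM (log2 ratio 0.801). In RAC1i it was at 71.2 against 53.7 CPM. It was picked out because it passed 1.5-fold in opposite directions in the DMSO and Combo libraries. The difference between the libraries was not tested, since each condition had 1 library.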

How the results depend on the processing

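Of the summary values recomputed under 17 alternatives, 125 were labelled the same and 74 moved, and no single value changed direction. The label of the same is loose for counts and shares. It covers 53 to 74 lower genes under DMSO with separate UMIs, and a CDD ratio of RAC1i from 0.539 to 0.893 within bins of total UMIs. The smaller shift of GPX3 between RAC1i and DMSO from -1.01 to -0.97 was labelled as moved. The balance of higher and lower genes did turn: lower genes outnumbered higher ones in all libraries at a ratio of 5 to 4, and under DMSO with the top 2% of cells (counts below) and, by 73 to 74, with cells chosen on separate UMIs. Of the values of single genes and lists, 5478 were labelled the same and 915 moved. The sign changed in 181 of these 6393 values, and in 0 where the gene or list was past 1.5-fold: the largest of these log2 ratios that changed sign was 0.20 from 0. Some named genes of few UMIs are not among these values. ADM under DMSO, where it was nearly absent, went from a log2 ratio of 0.25 to -0.22 with separate UMIs. All counts below are in the order DMSO, RAC1i, Combo. With the top 2% of cells, 125, 80 and 139 genes were higher (20 in all libraries) and 131, 57 and 77 lower (2 in all). With the top 10%, 42, 23 and 36 were higher, and 3 and 5 lower for RAC1i and Combo. A minimum of 50 CPM gave 31, 23 and 32 higher and 30, 3 and 4 lower genes. No minimum gave 2559, 2797 and 3195 higher (171 in all) and 1757, 2094 and 2035 lower (89 in all), since it adds genes of few UMIs. A looser limit, a ratio of 5 to 4, gave 253, 159 and 227 higher (35 in all) and 502, 221 and 462 lower (29 in all). A 2-fold limit gave 14, 4 and 14 higher (2 in all) and 6, 0 and 0 lower. The lower genes of Combo numbered 17 with 20000 or more UMIs, 12 within bins of depth, 49 with cells chosen on separate UMIs and 15 without the 10% of cells with the most UMIs. Lower in all libraries was 1 gene with 20000 or more UMIs, 1 by the mean over cells, 1 with separate UMIs and 1 without the 8% highest Scrublet scores.

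The log2 ratio of GPX3 between RAC1i and DMSO, -1.01, became -0.97 with at most 10% mitochondrial UMIs, -1.081 without mitochondrial genes, -0.86 by TMM, -0.83 by DESeq2 size factors, -1.04 without the highest Scrublet scores and -1.075 without the cells with the most UMIs. That between Combo and DMSO, -1.20, became -1.236 with 20000 or more UMIs, -1.16 with at most 10% mitochondrial UMIs, -1.15 by the mean over cells, -1.27 without mitochondrial genes, -1.03 by TMM, -1.02 by DESeq2 and -1.235 without the highest Scrublet scores. That between Combo and RAC1i, -0.19, became -0.23 with 20000 or more UMIs, -0.12 by the mean over cells and -0.10 without the cells with the most UMIs. The share of cells with a GPX3 UMI was 87.6%, 72.7% and 73.6% unthinned and 33.0%, 26.9% and 24.7% at 5000 UMIs. With the top 10% for both scores, the immune ratio was 2.05 for RAC1i and 2.275 for Combo, in place of 2.98 and 3.25. The cell division ratio went from 0.328 to 0.5535 for DMSO and from 0.361 to 0.660 for Combo, and the CDD ratio of RAC1i from 0.539 to 0.879. The cause of these shifts was not tested, except where the alternative itself sets the count.

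No paired analysis was possible because each condition had 1 library. GPX3-high cells were cut from the upper tail of GPX3 levels, free RNA was not removed, doublet calling did not work, and with 1 library per condition treatment and library cannot be told apart.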

Other observations

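Some gene groups not described above differed by little and not alike between libraries. Over all genes tested, 36.2%, 37.4% and 34.1% had log2 ratios above 0 under DMSO, RAC1i and Combo, with medians of -0.07, -0.05 and -0.07. Of 82 cytosolic ribosomal protein genes, 68 were above 0 in GPX3-high cells of DMSO, 39 of Combo and 29 of RAC1i, the last near the share of all genes, with 0 past 1.5-fold in each. Proteasome subunits were below 0 for 33 of 35 genes of DMSO (median log2 ratio -0.23), while 23 of 34 of RAC1i (-0.04) and 26 of 35 of Combo (-0.06) were below 0, with medians near those of all genes. The 13 genes of the mitochondrial genome had a median of -0.07 for DMSO, and 11 of 12 for RAC1i and 12 of 12 for Combo were above 0, with medians of 0.10 and 0.15. Metallothioneins, which bind zinc and copper, were below 0 for 3 of 3 genes of DMSO (median -0.55), above 0 for 3 of 5 of RAC1i (median 0.0036) and above 0 for 5 of 5 of Combo (median 0.24), with 0 past 1.5-fold in each. The top genes of the CDD cluster, chosen by the study on these samples, had medians of -0.06, 0.05 and 0.25, with 10 of 10 above 0 for Combo. In Combo GPX3-high cells were shallower, and values of both lists shrank within bins of total UMIs. The log2 ratio of MT1X went from 0.216 to 0.063, that of MT1F from 0.098 to 0.028 and that of the CDD gene JUNB from 0.54 to 0.41.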
